A study of Mus musculus with 8 samples.

Results

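The S100 genes of mouse chromosome 3 were examined for chromatin loops in pancreatic cancer cells. The members were 8 genes, S100a1, S100a4, S100a6, S100a10, S100a11, S100a13, S100a14 and S100a16. A loop was counted as an S100 loop when an anchor, meaning either of its end regions, lay within 2 kb of an annotated transcription start of a member. This rule gave 130 distinct S100 loops among the 249200 distinct loops of 4 loop lists. They used 7 member anchors among 30542 anchors, and 6 of the 8 genes had such an anchor.

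Hi-ChIP reads contacts between distant DNA fragments at sites where a chosen protein is bound. The proteins were FOXA1, a forkhead factor that can bind closed chromatin, and HNF4G, a nuclear receptor of gut and pancreatic epithelium. Each was precipitated in 2 cultured, untreated lines of WT genotype from the KPC mouse model of pancreatic cancer, 1 from a primary tumor (tumor) and 1 from a liver metastasis (liver mets). There were 8 samples, 2 replicates in each of the 4 groups, and every group had 1 loop list for both replicates. WT is the label of the cells in this series, which come from a genetically engineered tumor model. Each line is a single model of its site, so that line and site of origin cannot be told apart. No value per replicate was used here, and no difference between groups could be set against a spread between replicates. The intervals given below are 95% intervals for counting error only. Loops that share an anchor are not independent, which these intervals ignore, and the sequencing depth behind each list is unknown.

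S100 proteins are small EF-hand proteins that bind calcium and then attach to partner proteins. Most of their genes lie side by side on mouse chromosome 3, next to the genes of the cornified envelope of skin. S100A4, also called metastasin, is known for its association with cell motility and metastasis. S100A6 (calcyclin) is abundant in many epithelial tumors, S100A10 forms a complex with annexin A2 at the membrane, and S100A11 binds annexin A1. S100A14 and S100A16 are found in epithelia, S100A13 takes part in the release of proteins that lack a signal peptide, and S100A1 acts in muscle.

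The members fell into 2 blocks. On mm10, S100a1 (chr3:90511034-90514392), S100a13 (chr3:90514435-90524581), S100a14 (chr3:90526856-90528837), S100a16 (chr3:90537254-90543151), S100a4 (chr3:90603771-90606045) and S100a6 (chr3:90612882-90624181) lay together. S100a11 (chr3:93520488-93526287) and S100a10 (chr3:93555080-93564643) lay apart from them. The gap between the S100a6 anchor and the first S100a11 anchor was 2898 kb and held 15 anchors, whereas the 93.8 kb from the S100a14 to the S100a6 anchor held 8. The longest loop of any list spanned 1999.97 kb, so the 12 pairs of member anchors between the blocks could not appear in the lists.

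The promoters of S100a4, S100a6 and S100a11 are shown because S100a4 and S100a6 had the most loops and S100a11 had the only member promoter with a match to a searched motif. The windows run from 250 bases before to 50 after the RefSeq start, are given 5′ to 3′ on the plus strand of GRCm38 and lie inside a loop anchor. The capitals mark the AP-1 core TGACTCA, here read on the opposite strand.
S100a4 promoter, chr3:90603520-90603819: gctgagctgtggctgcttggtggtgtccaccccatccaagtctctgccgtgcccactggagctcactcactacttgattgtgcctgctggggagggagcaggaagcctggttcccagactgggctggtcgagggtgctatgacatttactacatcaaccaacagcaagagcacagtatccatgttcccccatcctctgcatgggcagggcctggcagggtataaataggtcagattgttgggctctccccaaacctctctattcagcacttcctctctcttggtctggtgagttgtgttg
S100a6 promoter, chr3:90612644-90612943: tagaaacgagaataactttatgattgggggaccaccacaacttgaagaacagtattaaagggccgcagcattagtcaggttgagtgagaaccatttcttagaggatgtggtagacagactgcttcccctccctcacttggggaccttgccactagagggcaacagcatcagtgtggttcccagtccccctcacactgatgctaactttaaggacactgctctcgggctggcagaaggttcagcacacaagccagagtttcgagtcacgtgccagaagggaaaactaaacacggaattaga
S100a11 promoter, chr3:93520246-93520545: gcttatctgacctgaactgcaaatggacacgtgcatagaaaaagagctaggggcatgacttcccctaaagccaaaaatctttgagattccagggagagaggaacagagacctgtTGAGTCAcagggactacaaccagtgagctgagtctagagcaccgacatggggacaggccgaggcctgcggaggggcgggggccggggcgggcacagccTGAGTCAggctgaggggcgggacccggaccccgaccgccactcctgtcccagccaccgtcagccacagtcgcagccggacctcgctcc

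The motifs searched on both strands were the forkhead core TGTTTAC, the HNF4 core CAAAGTC and the AP-1 core TGACTCA. RefSeq windows were matched for 6 of the 8 members, with 7 windows in all. None of these windows held the forkhead or the HNF4 core, which were present in 3.65% and 4.44% of 32851 promoter windows. The AP-1 core was present in 1 of the 7, that of S100a11, and in 5.202% of all windows. A lack of these letters says nothing of the binding of the factors.

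The wider loop anchors held more matches. The 7 member anchors had 2 forkhead, 7 HNF4 and 12 AP-1 cores, or 0.0634, 0.222 and 0.380 matches per kb, against 0.179, 0.165 and 0.295 over all anchors. The S100a6 anchor was the only member anchor with all 3 cores besides the second S100a11 anchor. Anchors within 20% of the S100a6 anchor in width held at least 1 forkhead core in 63.6% and at least 1 HNF4 core in 68.2% of 748 cases. The sites of the cores of both precipitated factors in the S100a4 and S100a6 anchors are given with 15 bases on each side, and the capitals mark the core.
S100a6 anchor, forkhead core, plus strand, chr3:90617725-90617761: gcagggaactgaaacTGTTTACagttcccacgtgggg
S100a6 anchor, HNF4 core, minus strand, chr3:90611932-90611968: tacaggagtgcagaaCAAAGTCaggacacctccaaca
S100a6 anchor, HNF4 core, minus strand, chr3:90616584-90616620: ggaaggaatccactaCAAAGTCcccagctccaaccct
S100a4 anchor, HNF4 core, plus strand, chr3:90599309-90599345: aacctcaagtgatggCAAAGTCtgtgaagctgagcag
S100a4 anchor, HNF4 core, minus strand, chr3:90602245-90602281: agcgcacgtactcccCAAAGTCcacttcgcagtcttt

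The number of loops per gene was highest for S100a4 and S100a6. In the FOXA1 lists S100a4 had 21 loops in liver mets and 22 in tumor, and in the HNF4G lists it had 14 and 11. S100a6 had 23 and 18 in the FOXA1 lists and 10 and 17 in the HNF4G lists. Below, 4 counts or values in a row without list names are for FOXA1 in liver mets and in tumor, then for HNF4G in liver mets and in tumor. Each summed to 68 over the lists, at the 86.5 percentile of 10786 protein-coding genes with an anchor, whose median was 23. Both genes shared their anchor with a neighbour, S100a4 with a start of S100a3 and of Gm42674 (chr3:90596947-90605411) and S100a6 with S100a5 (chr3:90611744-90619085). Loops of these neighbours cannot be told apart from those of the members.

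These anchors were also wide. The S100a4 anchor measured 8.46 kb and the S100a6 anchor 7.34 kb, at the 99.3 and 98.8 percentiles of all anchors, whose median was 2.33 kb. Anchors within 20% of their width had a median of 68 and 58 loops summed over the lists. The sum of 68 for S100a4 was therefore equal to the median of anchors of its own width, and that of S100a6 was above it. The S100a14 anchor had 39 loops against a median of 19 at its width, the S100a16 anchor 32 against 18 and the S100a10 anchor 31 against 27. The first S100a11 anchor had 20 against 15, and the second had 26 against 37.

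The other members with an anchor had fewer loops. S100a11 had 18, 14, 6 and 8 loops, spread over 2 anchors (chr3:93517123-93518642 and chr3:93519330-93524349). S100a14 (chr3:90525236-90528029) had 10, 12, 8 and 9, and S100a16 (chr3:90535887-90538374) had 11, 9, 7 and 5. S100a10 (chr3:93554092-93558012) had 10, 7, 8 and 6. The sum over the lists was 46 for S100a11 (75.4 percentile of protein-coding genes) and 39 for S100a14 (69.6 percentile). It was 32 for S100a16 (62.3 percentile) and 31 for S100a10 (61.0 percentile). In each list the intervals of genes next to each other in the order of the sums overlapped.

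S100a1 and S100a13 had no loop in any list under the 2 kb rule. Their starts lie head to head, and the nearest anchor was 3.80 kb from S100a1 and 3.96 kb from S100a13. This was the anchor at the start of Chtop (chr3:90508231-90510477), a gene for a chromatin-associated protein. The absence of loops at these genes is an absence of anchors and not a count of 0 at an anchor.

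**Figure D1:**
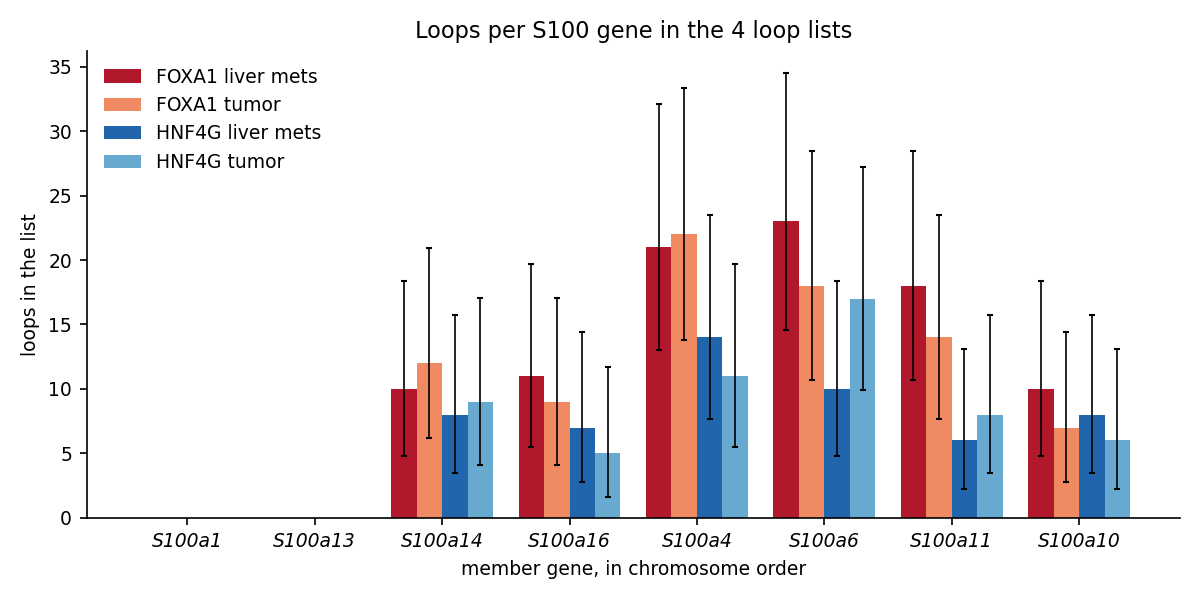
Bars show the number of loops (y axis) of each S100 gene (x axis) in the 4 lists, with exact Poisson 95% intervals for counting error only. S100a4 and S100a6 have the tallest bars, between 10 and 23 loops, and S100a1 and S100a13 have no anchor and no bar.

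The liver mets and tumor lists held similar numbers of S100 loops. For FOXA1, 86 S100 loops were listed in liver mets and 75 in tumor, giving a ratio of 1.15 (0.831 to 1.58), where all loops gave 1.21. For HNF4G, 48 and 49 were listed, giving a ratio of 0.980 (0.644 to 1.49), where all loops gave 1.02. Neither interval excluded 1, and both held the ratio of all loops.

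FOXA1 lists held more S100 loops than HNF4G lists of the same line. The ratio was 1.79 (1.24 to 2.61) in liver mets and 1.53 (1.05 to 2.24) in tumor. All loops gave 1.61 and 1.36, since the FOXA1 lists were longer. As shares of their lists, the ratios were 1.11 (0.774 to 1.62) and 1.12 (0.772 to 1.64), and these intervals include 1.

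Individual genes did not all follow the totals. S100a6 had 23 loops in FOXA1 liver mets and 18 in FOXA1 tumor, a ratio of 1.28 (0.660 to 2.51). In HNF4G it had 10 and 17, a ratio of 0.588 (0.241 to 1.36). S100a4 showed the opposite order, with 0.955 (0.499 to 1.82) for FOXA1 and 1.27 (0.537 to 3.098) for HNF4G. All of these intervals include 1, and whether FOXA1 and HNF4G differ was not tested.

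Each loop carried a value, read as the −log10 of an adjusted p by the loop caller and ending at 20. So read, it gives statistical support and not contact strength, and a low value stands for little support. Anchors are called joined when a loop between them was listed, at any value. Where values of a loop are ordered between lists below, the order was not tested, and the depth behind each list is unknown. A value of 2 or more was held by 14 S100 loops in FOXA1 liver mets (16.3% of its S100 loops, against 9.33% of all loops of that list). In FOXA1 tumor it was held by 10 (13.3% against 7.84%). For HNF4G it was held by 3 in liver mets (6.25% against 7.21%) and by 5 in tumor (10.2% against 7.32%). Together these were 22 distinct loops, of which 14 ended at the S100a6 anchor and 7 at the S100a4 anchor, including the loop between them. Only 3 of the 22 reached a value of 2 in all 4 lists, and 18 did so in 1 list. The S100a11 to S100a10 block had 1 such loop, in FOXA1 liver mets, and the S100a14 to S100a6 block had all the others. The median value of S100 loops was 1.40, 1.08, 0.423 and 0.972. This was below the median of all loops in every list, at 1.52, 1.55, 1.61 and 1.65. Neither these medians nor the shares above were matched for span. The S100 loops were shorter than loops at large (below), and the part of span in the values was not tested.

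Contacts among S100 promoters were listed for most pairs that the lists could hold. There were 9 pairs of member anchors within a block, and 8 were joined by a loop in at least 1 list. Over all anchors, 91.7% of the pairs of 10 to 20 kb, 81.5% of those of 20 to 50 kb and 67.4% of those of 50 to 100 kb were listed in at least 1 list, so that most pairs at these spans were joined. The ninth pair was the 2 anchors of S100a11 itself, whose midpoints lie closer together than those of the shortest loop of any list. HNF4G liver mets held 5 of these loops and each of the other three lists held 7, and 4 were in all lists.

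The loop between the S100a4 and S100a6 anchors, 14.2 kb long, had the highest value of the loops between members in each list. Its value was 20 in liver mets and 10.1 in tumor for FOXA1, and 20 and 5.45 for HNF4G. These values were reached by 0.656%, 0.516%, 0.290% and 1.19% of the loops of 10 to 20 kb in their lists. This ranking was matched for span and not for anchor width, and both anchors were wide (above). The tumor values were below the liver mets values for both factors, in lists whose depth is unknown.

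The S100a4 and S100a6 anchors were both joined to the next anchor upstream, at the starts of S100a2 and of a further S100a3 transcript (chr3:90584794-90591463). The loop to S100a4, 13.1 kb long, had values of 20, 6.47, 3.54 and 7.13. The loop to S100a6, 27.3 kb long, had 20, 20, 5.51 and 7.01, and was above the loop between S100a4 and S100a6 in both tumor lists. These 3 loops formed a closed triangle of S100 promoters, and they were the 3 S100 loops with a value of 2 or more in every list. All 3 anchors were wide, that of S100a2 and S100a3 at 6.67 kb, and the part of width in these values was not tested. The S100a2 and S100a3 anchor held no forkhead or HNF4 core, which 60.02% and 64.2% of 1073 anchors of like width held. It held 5 AP-1 cores, where such anchors had a median of 2.

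The epithelial members S100a14 and S100a16 were joined to this triangle with lower values. The loop from S100a14 to S100a6 (88.8 kb) was in all lists, with 1.76, 1.48, 1.03 and 3.56. The loop from S100a16 to S100a6 (78.3 kb) had 0.661, 0.123, 0.319 and 1.12. Both of these had their highest value in HNF4G tumor. The neighbours S100a14 and S100a16, 10.5 kb apart, were joined in all lists at 0.680, 0.111, 0.348 and 0.153. The loops from S100a14 and from S100a16 to S100a4 were in every list but HNF4G liver mets, at values of 0.0883 to 0.966. The low values among these loops give little statistical support for a contact.

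The annexin partners S100a11 and S100a10 were joined at low values, with little statistical support. The first S100a11 anchor was joined to S100a10 in FOXA1 liver mets only, at 0.252. The second was joined to S100a10 in the other three lists, at 0.123 in FOXA1 tumor and, for HNF4G, at 0.146 in liver mets and 0.171 in tumor. In each list, then, 1 of the 2 S100a11 anchors was joined to S100a10.

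**Figure D2:**
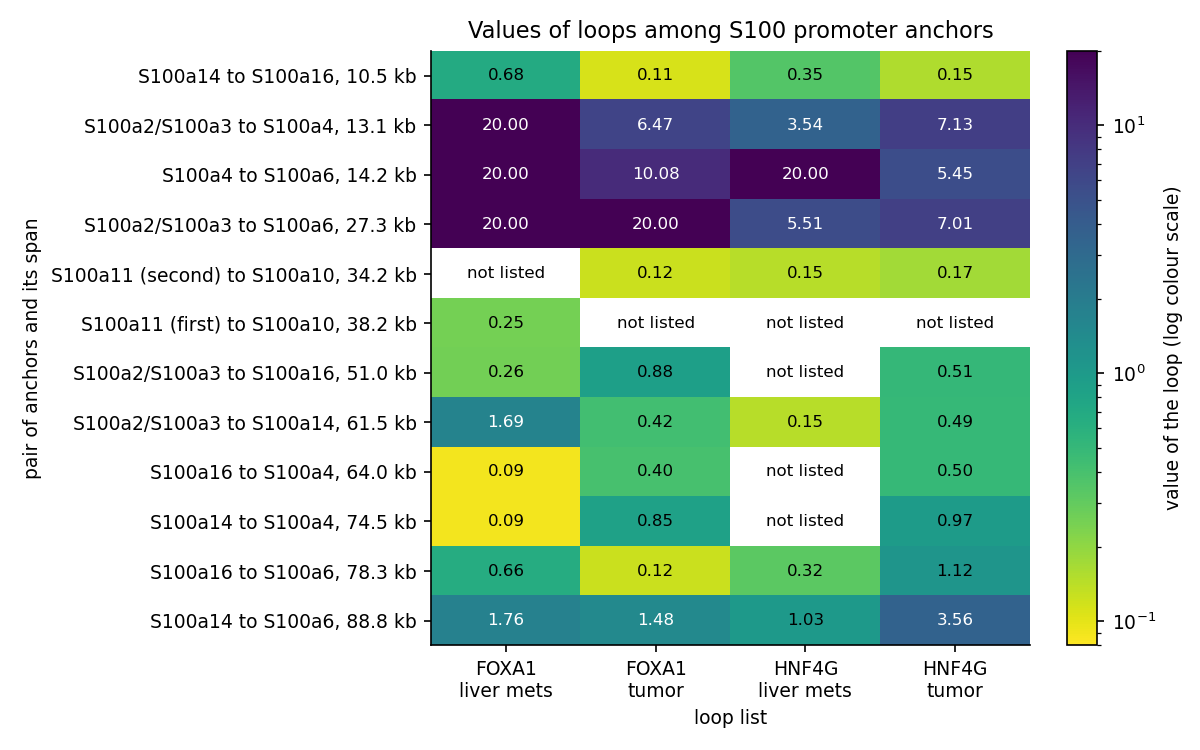
Colours and numbers give the value of each loop among S100 promoter anchors (y axis, pair and span in kb) in the 4 lists (x axis), and white cells are loops not listed. The 3 loops among S100a2/S100a3, S100a4 and S100a6 have values from 3.54 to 20, and the other loops are at or below 3.56.

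Loops left the S100a14 to S100a6 block on both sides. Within 200 kb, 15 distinct loops went to lower coordinates, out of 20 possible pairs (75%, 53.1 to 88.8). To higher coordinates went 18, also out of 20 (90%, 69.9 to 97.2). Over all anchors, 91.7% of pairs of 10 to 20 kb and 81.5% of those of 20 to 50 kb were listed in any list. At 50 to 100 kb the share was 67.4%, and at 100 to 200 kb 43268 of 84697 pairs were listed. The anchors outside the members with the most list memberships were the S100a2 and S100a3 anchor with 15, an anchor in an intron of an S100a3 transcript with 14 (chr3:90574683-90576736) and the Chtop anchor with 11. Anchors at the small RNA gene Gm24593 (chr3:90550245-90551549), in an intron of a long S100a6 transcript (chr3:90621036-90623330) and at Gm42579 (chr3:90705624-90709435) also had 11. Next came 2 anchors without an annotated gene downstream of S100a6 (chr3:90627796-90630370 and chr3:90638275-90639668) with 10 each. The last of the first 10 were an anchor without a gene beyond S100a10 (chr3:93595151-93599718) with 10, and an anchor in exons of Ilf2 and Snapin (chr3:90486258-90488271) with 9.

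Many of these partners were shared between members. Of 42 partner anchors of the S100a14 to S100a6 block, 8 were joined to all 4 member anchors and 4 were joined to 3 of them. A further 7 were joined to 2 member anchors, and 23 to 1. Of all 62 partner anchors of both blocks, 35 lay at an annotated start, 4 in an exon, 5 in an intron and 18 in no annotated gene. The shares of these classes over all anchors were not taken, so the counts do not set the partners apart from other anchors. A partner was counted when the loop was in any list. The member anchors lie close together, and the part of this closeness in the sharing was not tested.

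S100a6 had the most loops in all lists, 10, and S100a4 had 5. Besides the triangle, S100a6 kept a loop to Gm42579 (92.1 kb) at 1.34, 1.502, 1.99 and 2.34. Its longest loop in all lists went to Chtop (106.1 kb), at 1.74, 2.78, 1.34 and 1.19. S100a4 was joined to Gm42579 (106.3 kb) at 0.820, 1.90, 1.33 and 1.99, which was its longest loop in all lists. The loop from S100a6 to Gm42579 was higher in both HNF4G lists than in both FOXA1 lists, and the loop to Chtop was highest in FOXA1 tumor. The value of 1.99 in HNF4G liver mets is the value most common among long loops of that list (below).

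S100a14 had 4 loops in all lists, and S100a16 had 2. Those of S100a14 included the loop to Gm24593 (24.3 kb) at 0.622, 0.346, 0.407 and 0.168 and the loop to the S100a2 and S100a3 anchor (61.5 kb) at 1.69, 0.422, 0.146 and 0.491. Both were highest in FOXA1 liver mets. Those of S100a16 were its loops to S100a14 and S100a6 given above.

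S100a10 had 2 loops in all lists and S100a11 had none. The loop from S100a10 to the anchor without a gene beyond it (41.4 kb) had 2.07, 1.79, 0.415 and 0.523, higher in both FOXA1 lists than in both HNF4G lists. The loop to a nearer anchor without a gene (chr3:93567643-93570372, 12.96 kb) had 0.197, 0.122, 0.705 and 0.165. The 29 distinct loops of S100a11 included 18 that were in 1 list, and no value of S100a11 exceeded 1.99.

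**Figure D3:**
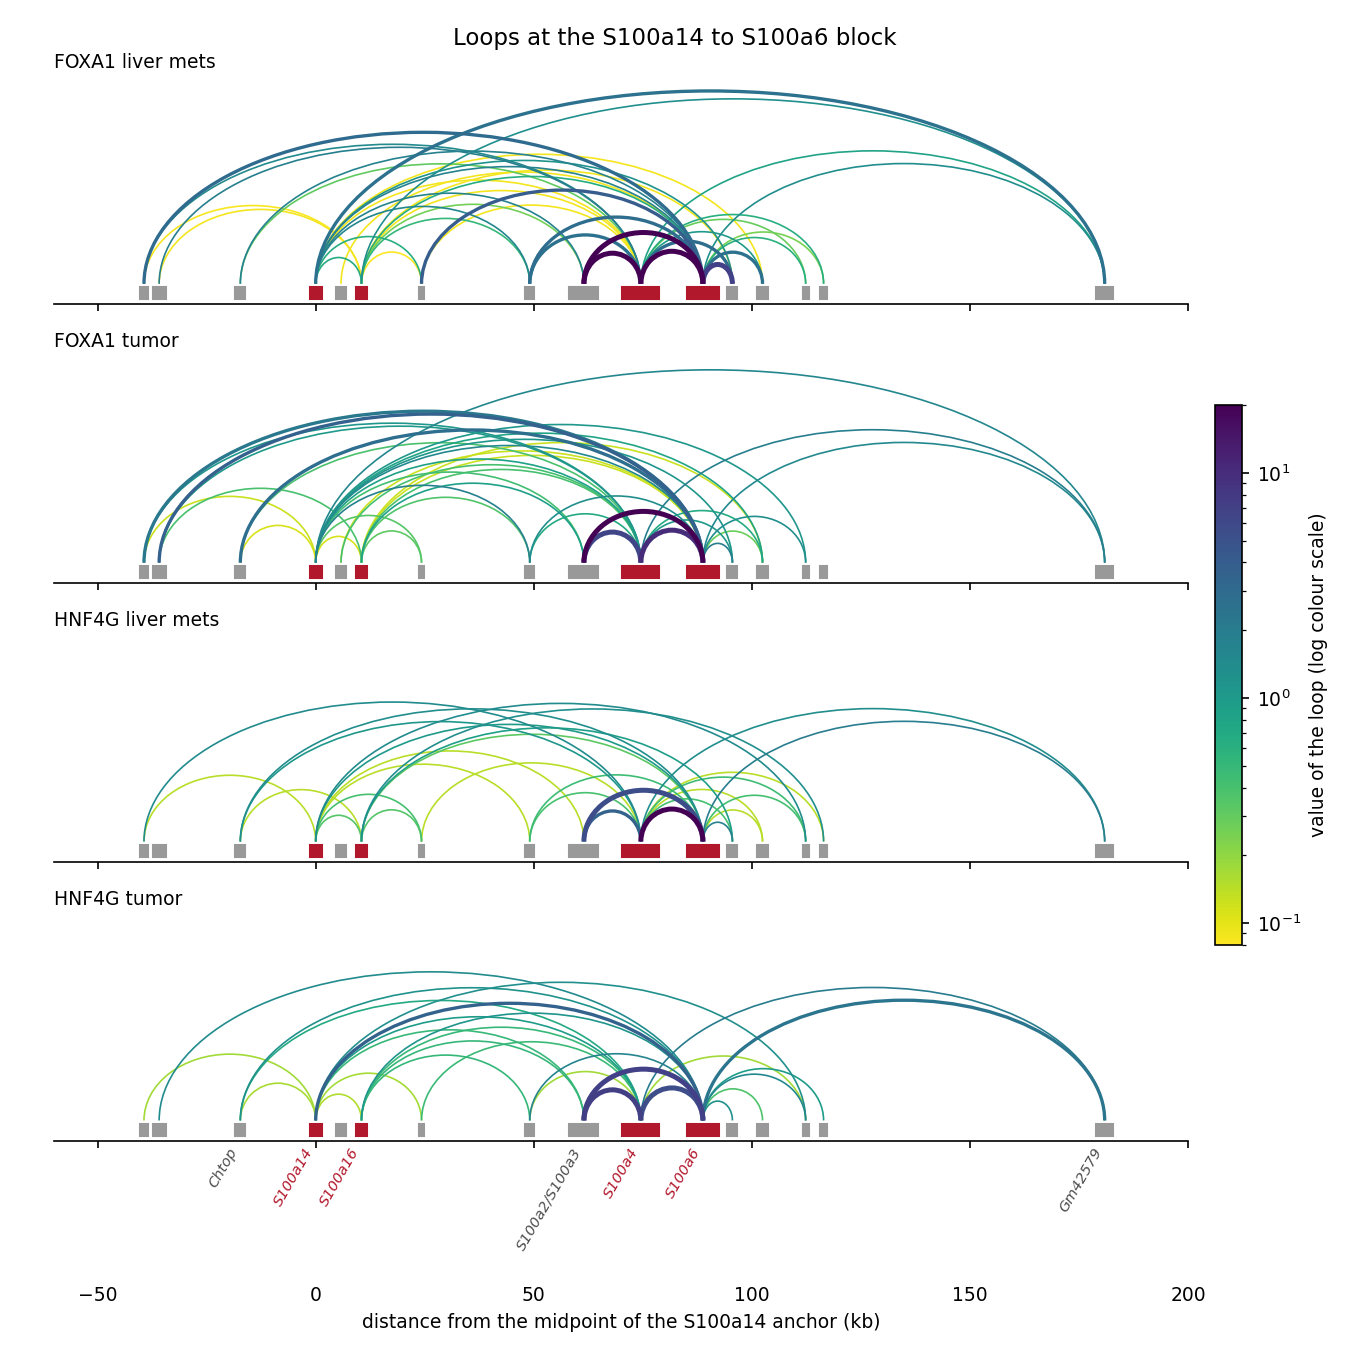
Arcs join the anchors of each loop in the 4 lists, placed by distance from the midpoint of the S100a14 anchor (x axis, kb), with colour for the value on a log scale, thicker lines from a value of 2 and again from 5, and arc height rising with span. Red boxes are member anchors and grey boxes partner anchors, and the darkest arcs in each panel are those among S100a2/S100a3, S100a4 and S100a6.

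S100 loops were in several lists more often than loops at large. Of the 130 distinct S100 loops, 19 were in all 4 lists (14.6%, 9.56 to 21.7), against 5.28% of all distinct loops. In 1 list only there were 61 (46.9%, 38.6 to 55.5), against 65.6% of all loops. S100 loops were shorter than loops at large (below), and the shares are therefore also given by span. In all 4 lists were 23.1% of S100 loops and 13.9% of all loops of 20 to 50 kb. The shares were 19.2% and 7.40% at 50 to 100 kb, and 13.3% and 3.36% at 100 to 200 kb. These 3 ranges had 26, 26 and 15 S100 loops, of which 6, 5 and 2 were in all 4 lists. No intervals were taken for these shares by span. Anchor width was not matched here, and the S100a4 and S100a6 anchors were wide (above). From 200 kb no S100 loop was in all lists, against 0.562% of all loops, and 42 of 48 were in 1 list (87.5%), against 84.3% of all loops.

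The same shares were taken for each block. In the S100a14 to S100a6 block 17 of 87 loops were in all lists (19.5%, 12.6 to 29.1), and in the S100a11 to S100a10 block 2 of 43 (4.65%, 1.28 to 15.5). The share over all distinct loops, 5.28%, lay below the first interval and within the second. Among the possible pairs of a member anchor with any anchor 5 to 200 kb away, 17 of 61 were in all lists in the first block (27.9%, 18.2 to 40.2) and 2 of 32 in the second (6.25%, 1.73 to 20.1). In both measures the intervals of the blocks overlap. Over all anchors, 2366 of 6366 pairs of 5 to 10 kb and 2677 of 11663 of 10 to 20 kb were in all lists. At longer spans these were 3570 of 31590 (20 to 50 kb), 2364 of 47426 (50 to 100 kb) and 1453 of 84697 (100 to 200 kb).

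The S100 loops were short for these lists. Their median span was 76.9, 74.5, 45.5 and 61.5 kb, and all loops had medians of 163.7, 140.6, 114.3 and 131.4 kb. Loops of 100 kb or more made up 40.7% (30.9 to 51.3), 37.3% (27.3 to 48.6), 20.8% (11.7 to 34.3) and 28.6% (17.8 to 42.4) of S100 loops, against 62.3%, 58.6%, 53.4% and 56.8% of all loops. All 4 intervals lie below the share of all loops.

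The lower share of long loops was set against the anchors within reach. At 50 to 100 kb, the possible pairs of an S100 anchor with another anchor were listed in 62.1% (44.0 to 77.3), 58.6% (40.7 to 74.5), 41.4% (25.5 to 59.3) and 55.2% (37.5 to 71.6) of cases. Over all anchors, 38.4%, 33.8%, 26.8% and 24.8% of pairs of this span were listed. At 100 to 200 kb the S100 shares were 52.6% (31.7 to 72.7), 57.9% (36.3 to 76.9), 26.3% (11.8 to 48.8) and 31.6% (15.4 to 54.0), and those of all anchors 25.9%, 21.9%, 16.2% and 15.7%. From 1000 to 2000 kb the S100 shares were 2.86% (1.56 to 5.18), 2.00% (0.972 to 4.07), 0.286% (0.0505 to 1.60) and 0.857% (0.292 to 2.49), and those of all anchors 2.29%, 1.60%, 1.06% and 1.16%. The interval lay above the share of all anchors at 50 to 100 kb in every list but HNF4G liver mets, and at 100 to 200 kb in the FOXA1 lists. At 20 to 50 kb it did so in FOXA1 liver mets only, with 78.6% (60.5 to 89.8) against 52.2%. At 10 to 20 kb the intervals of all 4 lists held the share of all anchors. From 1000 to 2000 kb all 4 intervals held the share of all anchors, and so did those of 200 to 500 kb and of 500 to 1000 kb. These shares were not matched for anchor width. The S100a4 and S100a6 anchors were wide (above), and the part of width in the shares was not tested.

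**Figure D4:**
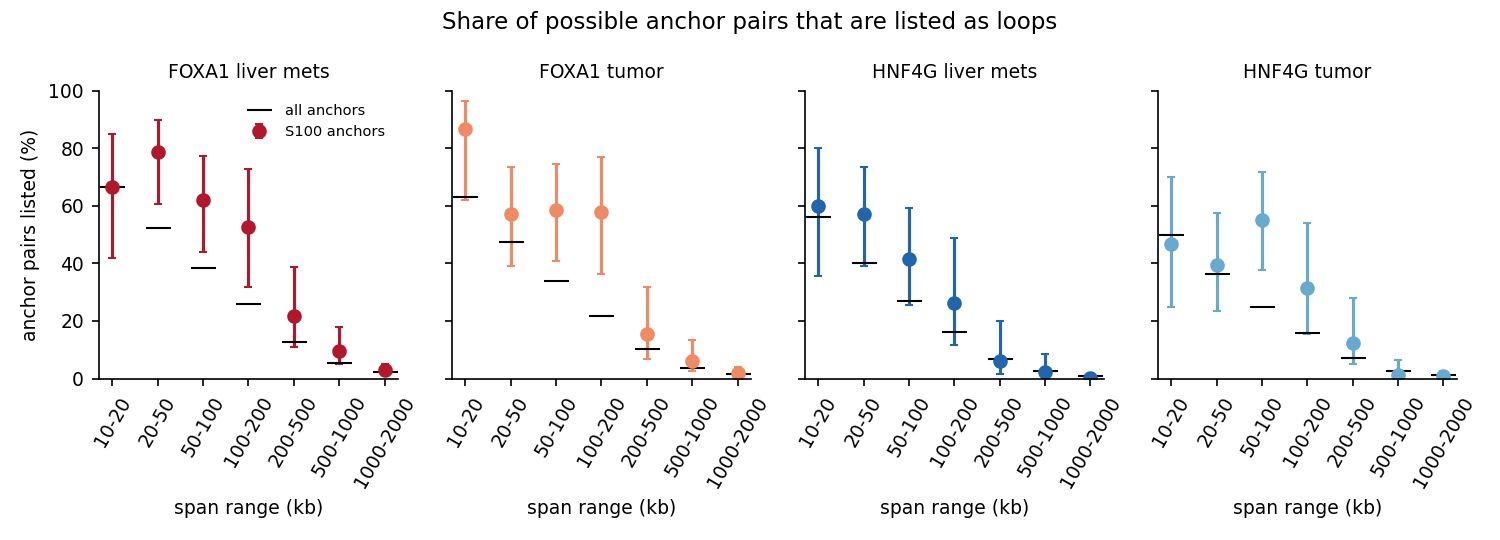
Points show the share of possible pairs of an S100 anchor with another anchor that were listed as loops (y axis, percent), by span range (x axis, kb), with Wilson 95% intervals, and short black lines show the same share over all anchors. Between 50 and 200 kb the points lie above the black lines in all 4 lists, though not every interval does, and anchor width is not matched.

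Of 20 distinct S100 loops of 1000 kb or more, 19 were in 1 list (95%), against 94.5% of all loops of this span. The value most common among long loops was 1.87, 1.91, 1.99 and 1.99, and it was held by 14, 12, 4 and 5 S100 loops of any span. These were 16.3%, 16%, 8.33% and 10.2% of the S100 loops, against 14.6%, 15.5%, 14.7% and 15.9% of all loops. From the S100a14 to S100a6 block, 32 loops of 200 kb or more went to lower coordinates, out of 286 possible pairs (11.2%, 8.04 to 15.4). Toward the gap before S100a11, 2 of 20 possible pairs were listed (10.0%, 2.79 to 30.1). Over all anchors, 61949 of 217234 pairs of 200 to 500 kb were listed in at least 1 list. At 500 to 1000 kb these were 39127 of 308835, and at 1000 to 2000 kb 30336 of 525914.

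A few long loops had a value above the tied values, and they were picked after their values were seen. S100a6 was joined over 1223 kb to the start of Zbtb7b, a gene for a zinc finger transcription factor, at 4.01 in FOXA1 liver mets and 1.91 in FOXA1 tumor. S100a4 was joined over 1885 kb to Sprr1a, a cornified envelope gene in the gap between the blocks, at 4.10 in FOXA1 tumor only. The same Sprr1a anchor was joined to S100a10 over 1070 kb in FOXA1 liver mets, at the tied value of 1.87. Dennd4b was joined to S100a6 over 350.1 kb for FOXA1 at 3.25 in liver mets and 1.81 in tumor, and for HNF4G at 1.93 in tumor. The same Dennd4b anchor was joined to S100a4 over 335.9 kb for FOXA1 at 1.70 in liver mets and 3.31 in tumor, the opposite order. None of these loops was in HNF4G liver mets.

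**Figure D5:**
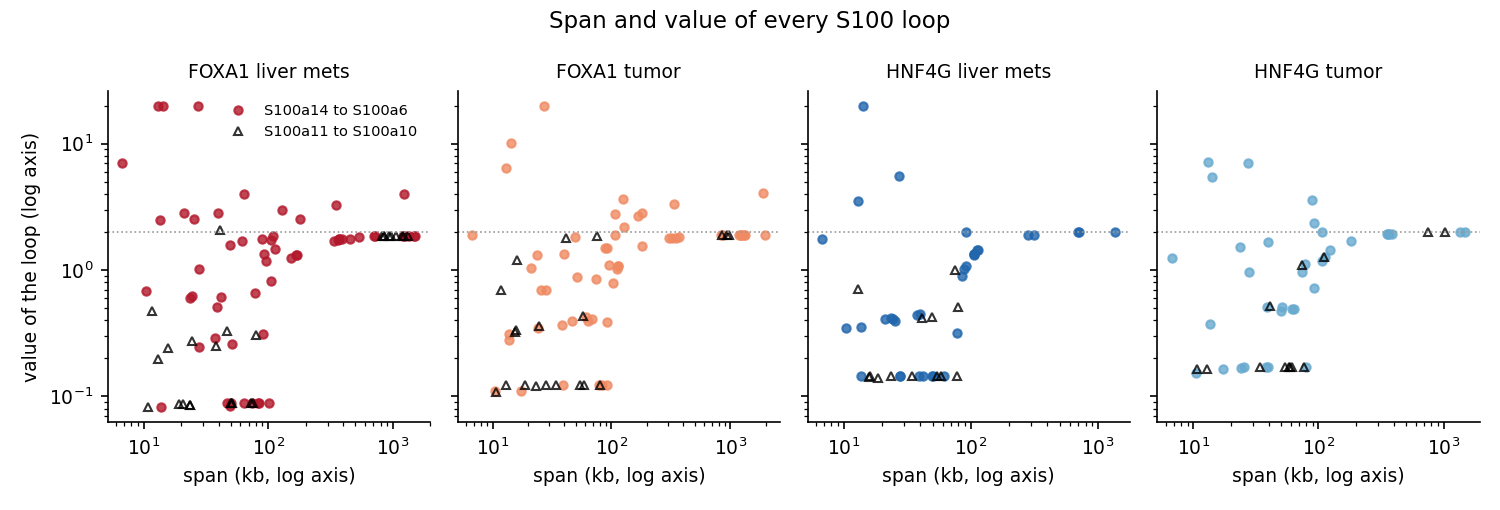
Each symbol is an S100 loop, placed by its span (x axis, kb, log scale) and its value (y axis, log scale) in each list, with filled circles for the S100a14 to S100a6 block and open triangles for the S100a11 to S100a10 block. The dotted line is a value of 2, above which lie 14, 10, 3 and 5 loops, and the rows of symbols at 1.87 to 1.99 are the tied values most common among long loops.

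Other genes of the S100 system were counted from a list set by family and function. S100a3 had 37, 39, 24 and 27 loops, as it has starts at both the S100a4 anchor and the S100a2 anchor. S100a5 had the counts of S100a6, whose anchor it shares. S100a7a, S100a8 and S100a9 of the same chromosome, and S100b, S100g and S100z elsewhere, had no anchor within 2 kb of a start. S100pbp, which encodes an S100P binding protein, had 21, 20, 18 and 19.

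Of the partner proteins, Anxa2, the annexin bound by S100A10, had 22, 14, 13 and 8 loops. Anxa1 had 5, 9, 5 and 1, and Cacybp, the calcyclin binding protein, had 6, 3, 1 and 1. The receptor gene Ager had no anchor. S100a2 was not in this list and had 17, 18, 11 and 17.

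Genes elsewhere had loop numbers close to those of S100a4 and S100a6. Over log2(loops + 1) in the 4 lists, the protein-coding genes over 2 Mb away nearest to S100a4 were Ndufb9 and Tatdn1, both at a Euclidean distance of 0.169, and Casq2 at 0.179. Ndufb9 and Tatdn1 each had 22, 22, 15 and 10 loops. The genes nearest to S100a6 were Ntan1 at 0.181, Tmem40 at 0.187 and Phlpp1 at 0.208, among 10725 genes compared. Ntan1 had 22, 18, 10 and 15 loops.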

How the data were processed

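Hi-ChIP loop lists were analysed for 8 samples in 4 groups, taken from the sample titles, with 1 list per group of 2 replicates. Per the study's methods and the submitters' processing notes, HiC-Pro 3.1.0 ran with defaults on mm10 (DpnII fragments, duplicates removed), followed by hichipper. The anchor source, the minimum of paired reads and the joining of replicates were not given in the sources used here. Each loop had a value that the authors deposited unnamed after loop calling, here read as the −log10 of an adjusted p because of its ties and its end at 20. The display score deposited by the authors followed from the value (add 1 to its integer part, times 10) and was not used further. Depth is unknown, so list lengths and values are not comparable in depth.

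Starts came from GENCODE M21 and sequences from RefSeq, both on GRCm38. Loops with identical anchors were called the same, and span is the distance between anchor midpoints. Intervals were exact (Clopper-Pearson, conditional on the sum) for ratios, Wilson for shares and Poisson for counts, in Python 3.11.15 with SciPy 1.17.1. Scripts were tested on simulated lists. No test between groups was run, as each had 1 list. The alternatives were another distance to a start, coding transcripts only, a minimum value of 2, shares of the list, loops under 1 Mb, and wider anchors. Members and lists were chosen with earlier results of these data known. Named loops were all loops between members and, per member anchor, up to 3 loops in all lists with the highest lowest value and the longest such loop. Named partners were the 10 anchors with most list memberships. S100a4 and S100a6 tied for most loops, so the genes of like pattern are given for both.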

Additional observations from a re-analysis of the deposited data

Results flagged for a closer look

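With liver mets set over tumor, the FOXA1 and HNF4G lists went opposite ways in loop number for the following. Whether the factors differ was not tested. Over all members the ratios were 1.15 for FOXA1 and 0.980 for HNF4G, and over the S100a14 to S100a6 block 1.07 and 0.972. As shares of the lists, both factors went the same way, at 0.951 and 0.957 over all members and 0.889 and 0.9501 over the block. In loop number, S100a4 had 0.955 for FOXA1 and 1.27 for HNF4G. S100a6 had 1.28 and 0.588, and S100a11 had 1.29 and 0.750. As shares, these were 0.791 and 1.24, 1.06 and 0.575, and 1.07 and 0.733, still opposite. Every group was 1 list, so each direction rests on a pair of lists, and the 95% interval of each of these ratios includes 1.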

How the results depend on the processing

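No paired analysis was possible because each group had 1 loop list for both replicates, and leaving out each replicate could not be run for the same reason. With a minimum value of 2, S100 loops numbered 14 in liver mets and 10 in tumor for FOXA1, and 3 and 5 for HNF4G, and pairs of promoter anchors 1 and 1, and 1 and 2. The ratio of HNF4G liver mets to tumor was then 0.600 (0.0932 to 3.08) and that of FOXA1 to HNF4G in liver mets 4.67 (1.302 to 25.3). Loops of 100 kb or more then made up 28.6%, 70%, 0% and 0% in the same order, and a minimum value leaves few loops. As shares of the lists, FOXA1 over HNF4G in liver mets was 1.11. With starts within 5 kb, the Chtop anchor counted for S100a1 and S100a13, and pairs of promoter anchors rose to 11 in FOXA1 liver mets, 12 in FOXA1 tumor and 8 in HNF4G liver mets. With anchors widened by 5 kb, so that neighbouring anchors can match, 54.6% of S100 loops had a counterpart in all 4 lists. This share was not taken over all loops, so it does not set the S100 loops apart. With the minimum value, the loop numbers of single genes fell by over 1.5 times in 24 of 32 cases. The other 8 were those of S100a1 and S100a13, which had no loop to lose. With starts within 5 kb, 10 rose by over 1.5 times, and with starts inside the anchor 3 fell by as much. The other results moved less under the alternatives tried.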
